A study of Mus musculus with 27 samples.

Results

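The 7 genes described here encode the aryl hydrocarbon receptor (Ahr), its DNA-binding partner (Arnt), the receptor's repressor (Ahrr) and 4 genes commonly used as readouts of the receptor (Cyp1a1, Cyp1b1, Tiparp and Nqo1). They were taken as a list of symbols, matched to 1 Ensembl gene each, and are 7 of the 53801 genes in the count table. All 7 were among the 18363 genes that passed the filter on low counts and were tested. They did not pass through the auxin libraries alone: in the 18 libraries without auxin the lowest count of any of them was 16, for Cyp1b1.

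The counts came from 27 RNA sequencing libraries. The cells were TX1072 mouse embryonic stem cells (mESC), made from a BL/6J x CAST-EiJ cross and labelled Spen-degron, in which auxin is used to remove the protein SPEN. SPEN is a transcriptional repressor that acts in X chromosome inactivation, and doxycycline (Dox) switches on Xist RNA in these cells. The GFP line carried BglG-GFP and the SPOC line carried BglG-GFP-SPOC, which adds SPEN's SPOC domain, so each construct was studied in 1 line. Cells of both lines were left untreated, received Dox at 1 ug/mL for 24 h, or received auxin for 12 h followed by Dox and auxin together for 24 h (Dox+Auxin). There were 4 libraries per GFP group and 5 per SPOC group. All 6 groups grew in serum with LIF, 3 uM CHIR99021 and 1 uM PD0325901. No group received auxin without Dox, or auxin without the degron, so the effects of auxin as a compound and of losing SPEN cannot be told apart in these groups. The auxin compound used is not given in the labels.

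The aryl hydrocarbon receptor is a bHLH-PAS transcription factor that waits in the cytoplasm with HSP90 and p23 until a ligand binds it. It then enters the nucleus, pairs with ARNT and binds a short response element whose core is GCGTG. Known ligands include dioxin, tryptophan products and several indoles, the chemical family of the natural plant auxin. Among its best known targets are the cytochrome P450 enzymes CYP1A1 and CYP1B1, which oxidise aromatic compounds, and the feedback repressors AHRR, which competes for ARNT, and TIPARP, which ADP-ribosylates the receptor. NQO1, a quinone reductase, is a target shared with the oxidative stress factor NRF2.

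Ahr (ENSMUSG00000019256) lies on chromosome 12 at chr12:35497974-35535038, Arnt (ENSMUSG00000015522) at chr3:95434388-95497240 and Ahrr (ENSMUSG00000021575) at chr13:74211118-74292331, all in GRCm38. Cyp1a1 (ENSMUSG00000032315) lies at chr9:57687928-57703824, Cyp1b1 (ENSMUSG00000024087) at chr17:79701537-79715061, Tiparp (ENSMUSG00000034640) at chr3:65528410-65555518 and Nqo1 (ENSMUSG00000003849) at chr8:107388225-107403206. In the annotation Ahr overlaps the lincRNA Gm48236 on the other strand, Tiparp overlaps the pseudogene 4931440P22Rik on the other strand, and Arnt holds the pseudogene Gm42672. No source used here says whether the counting used strand, so reads from these overlaps could not be assigned with certainty.

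The 250 bases before the transcription start were read for 6 of the 7 genes from RefSeq promoter sequences (GRCm38.p6). Those of 4 genes are shown because the results turn on them: the 3 targets whose RNA differed most with auxin, and Nqo1, whose difference depended on the line. Each runs 5′ to 3′ on the gene's strand, and capitals mark GCGTG on either strand (CACGC is its reverse complement). Cyp1a1 is on the plus strand (chr9:57697363-57697612), Cyp1b1 on the minus strand (chr17:79715062-79715311), Ahrr on the minus strand (chr13:74292332-74292581) and Nqo1 on the minus strand (chr8:107403206-107403455).
Cyp1a1: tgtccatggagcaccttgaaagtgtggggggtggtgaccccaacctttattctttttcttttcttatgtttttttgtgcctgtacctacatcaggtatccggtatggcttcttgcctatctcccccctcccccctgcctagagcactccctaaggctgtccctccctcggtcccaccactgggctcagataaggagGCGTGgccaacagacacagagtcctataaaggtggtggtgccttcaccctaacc
Cyp1b1: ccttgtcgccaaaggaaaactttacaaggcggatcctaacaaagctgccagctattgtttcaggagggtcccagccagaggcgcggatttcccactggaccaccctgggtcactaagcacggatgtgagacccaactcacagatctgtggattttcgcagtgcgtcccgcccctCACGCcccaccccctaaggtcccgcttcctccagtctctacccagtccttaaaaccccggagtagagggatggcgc
Ahrr: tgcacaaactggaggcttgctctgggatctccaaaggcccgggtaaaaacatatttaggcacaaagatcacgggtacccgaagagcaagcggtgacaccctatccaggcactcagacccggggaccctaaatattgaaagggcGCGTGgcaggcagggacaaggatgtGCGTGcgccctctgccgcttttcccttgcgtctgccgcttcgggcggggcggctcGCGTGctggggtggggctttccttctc
Nqo1: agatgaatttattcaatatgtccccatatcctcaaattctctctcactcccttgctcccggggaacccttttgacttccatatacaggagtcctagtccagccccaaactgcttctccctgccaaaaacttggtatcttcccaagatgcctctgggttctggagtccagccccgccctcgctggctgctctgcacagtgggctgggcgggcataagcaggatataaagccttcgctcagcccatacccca

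The window of Ahrr held 3 copies of GCGTG, those of Cyp1a1, Cyp1b1, Tiparp and Arnt held 1 each, and that of Nqo1 held 0. The same letters stood in 28.2% of 32851 promoter windows of this length, and 2.77% held 3 or more copies, so a single copy is common. The 5 letters are also part of other motifs, such as the hypoxia response element. The antioxidant response element, searched as TGACNNNGC on both strands, was found 2 times in the Arnt window and 0 times in those of Ahrr, Cyp1a1, Cyp1b1, Tiparp and Nqo1, against 10.2% of all windows with at least 1 match. A match describes the letters only, and the known enhancers of these genes further upstream were not searched.

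Total counts per library ranged from 28936459 to 45489094. RNA of Spen, the degron's target, was higher with auxin: 197 ± 15.4 CPM in GFP Dox libraries (mean ± SD, n = 4, counts scaled to library size by TMM factors) and 860 ± 223 in GFP Dox+Auxin libraries, against 353 ± 15.0 and 1052 ± 114 in the same SPOC groups (n = 5). The SPOC construct holds SPEN's SPOC domain, and whether its reads were counted as Spen was not tested. SPEN protein was not measured here. The 8 embryonic stem cell markers summed to 6024 to 6271 CPM with Dox and 5398 to 5681 with Dox+Auxin in GFP cells, ranges that did not overlap, and to 6001 to 6431 and 5659 to 6144 in SPOC cells. With Dox+Auxin relative to Dox, 5 of the 8 were called lower and 1 higher for GFP cells (22.9% and 24.7% of all genes tested), and 4 lower and 1 higher for SPOC cells (15.4% and 16.6%). Of the 5 hepatocyte markers, Alb, Fgb and Serpina1a had at most 1 count in any library and Hnf4a carried most of the sum, which was 3.40 to 4.74 CPM with Dox and 6.46 to 10.9 with Dox+Auxin in the GFP line, and 3.46 to 8.70 and 4.74 to 13.2 in the SPOC line. The 5 trophoblast markers summed to 19.3 to 22.4 CPM with Dox and 32.2 to 40.0 with Dox+Auxin in the GFP line. In the SPOC line they summed to 21.5 to 27.4 and 31.6 to 34.2. Untreated libraries held 22.4 to 29.6 CPM (GFP) and 29.95 to 36.0 (SPOC), so the SPOC range with Dox+Auxin lay within the untreated one. Of the 4 tested, Dox+Auxin relative to Dox called 1 higher and 0 lower for GFP cells. For SPOC cells it called 1 higher and 1 lower, against the same shares of all genes. The 6 feeder fibroblast markers summed to 16.3 to 20.8 and 11.2 to 13.9 CPM in the GFP line, and to 13.5 to 21.6 and 9.69 to 15.9 in the SPOC line. Only Col1a1 and Col1a2 passed the filter on low counts. In GFP Dox libraries these were at 13.6 ± 1.17 and 5.79 ± 1.22 CPM, where Col3a1, Dcn, Lum and Postn held at most 2 counts each. Of the 2 tested, Dox+Auxin relative to Dox called 2 lower for GFP cells and 1 lower for SPOC cells, against the same shares of all genes. The part of these stem cell and other-cell markers in the results was not tested. In bulk RNA, a change in the number of cells of a type and a change of RNA per cell cannot be told apart. The library labelled SPOC untreated replicate 2 contained much Xist RNA, and the 1 call among the 7 genes that differed without it is given with that call.

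Of the 7 receptor genes, 5 rose when auxin accompanied Dox in each line and 0 fell. In the GFP line these were Cyp1a1, Cyp1b1, Ahrr, Ahr and Tiparp, where 24.7% of all genes tested were called higher and 22.9% lower. In the SPOC line they were Cyp1a1, Cyp1b1, Ahrr, Ahr and Nqo1, where 16.6% of all genes were called higher and 15.4% lower. The median log2 fold change of the 7 genes was 0.39 for the GFP line and 0.35 for the SPOC line, against 0.0038 and -0.0080 over all genes tested. The sizes fell into separate ranges: Cyp1a1, Cyp1b1 and Ahrr differed by 4.00-fold or more, and the other 4 genes by 1.31-fold or less. Among all 18363 genes ranked by fold change, Cyp1a1 was number 1 in both lines, Cyp1b1 was number 7 for the GFP line and 5 for the SPOC line, and Ahrr was number 58 and 6.

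The receptor itself, Ahr, was present in every group and modestly higher with auxin. In the GFP line its level was 24.3, 23.9, 25.1 and 24.3 CPM in the untreated libraries, 22.1, 22.8, 21.2 and 22.9 with Dox, and 27.1, 29.0, 28.6 and 31.9 with Dox+Auxin. The SPOC libraries held 27.4, 24.7, 22.4, 26.0 and 24.4 CPM untreated, 27.5, 26.0, 24.5, 26.0 and 22.7 with Dox, and 30.3, 29.0, 28.3, 32.2 and 27.8 with Dox+Auxin. Within each line all Dox+Auxin libraries lay above all others, while between the lines the lowest Dox+Auxin library (27.1 CPM) lay below the highest library without auxin (27.5 CPM). Compared with Dox, Ahr rose 1.31-fold in the GFP line (log2 fold change 0.39, SE 0.06, adjusted p = 3.46e-06; p-values here are Benjamini-Hochberg adjusted, from the quasi-likelihood test of edgeR) and 1.17-fold in the SPOC line (0.22, SE 0.05, adjusted p = 0.0019). Such a complete separation from Dox, in this direction, was shared by 22.3% of all genes tested among GFP libraries and 10.1% among SPOC libraries, and from untreated cells by 18.7% and 9.90%.

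Arnt, the partner that the receptor needs to bind DNA, was 73.8 to 88.0 CPM over the 27 libraries. Its log2 fold change for auxin with Dox, relative to Dox, was -0.05 (SE 0.03, adjusted p = 0.24) in the GFP line and -0.07 (SE 0.03, adjusted p = 0.0676) in the SPOC line. The groups overlapped in both lines, and the 95% interval of the fold was 0.922 to 1.01 in the GFP line and 0.912 to 0.991 in the SPOC line. The SPOC value passed the threshold without SPOC Dox replicate 4 (adjusted p = 0.023) or without GFP Dox+Auxin replicate 3 (0.0494).

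**Figure D1:**
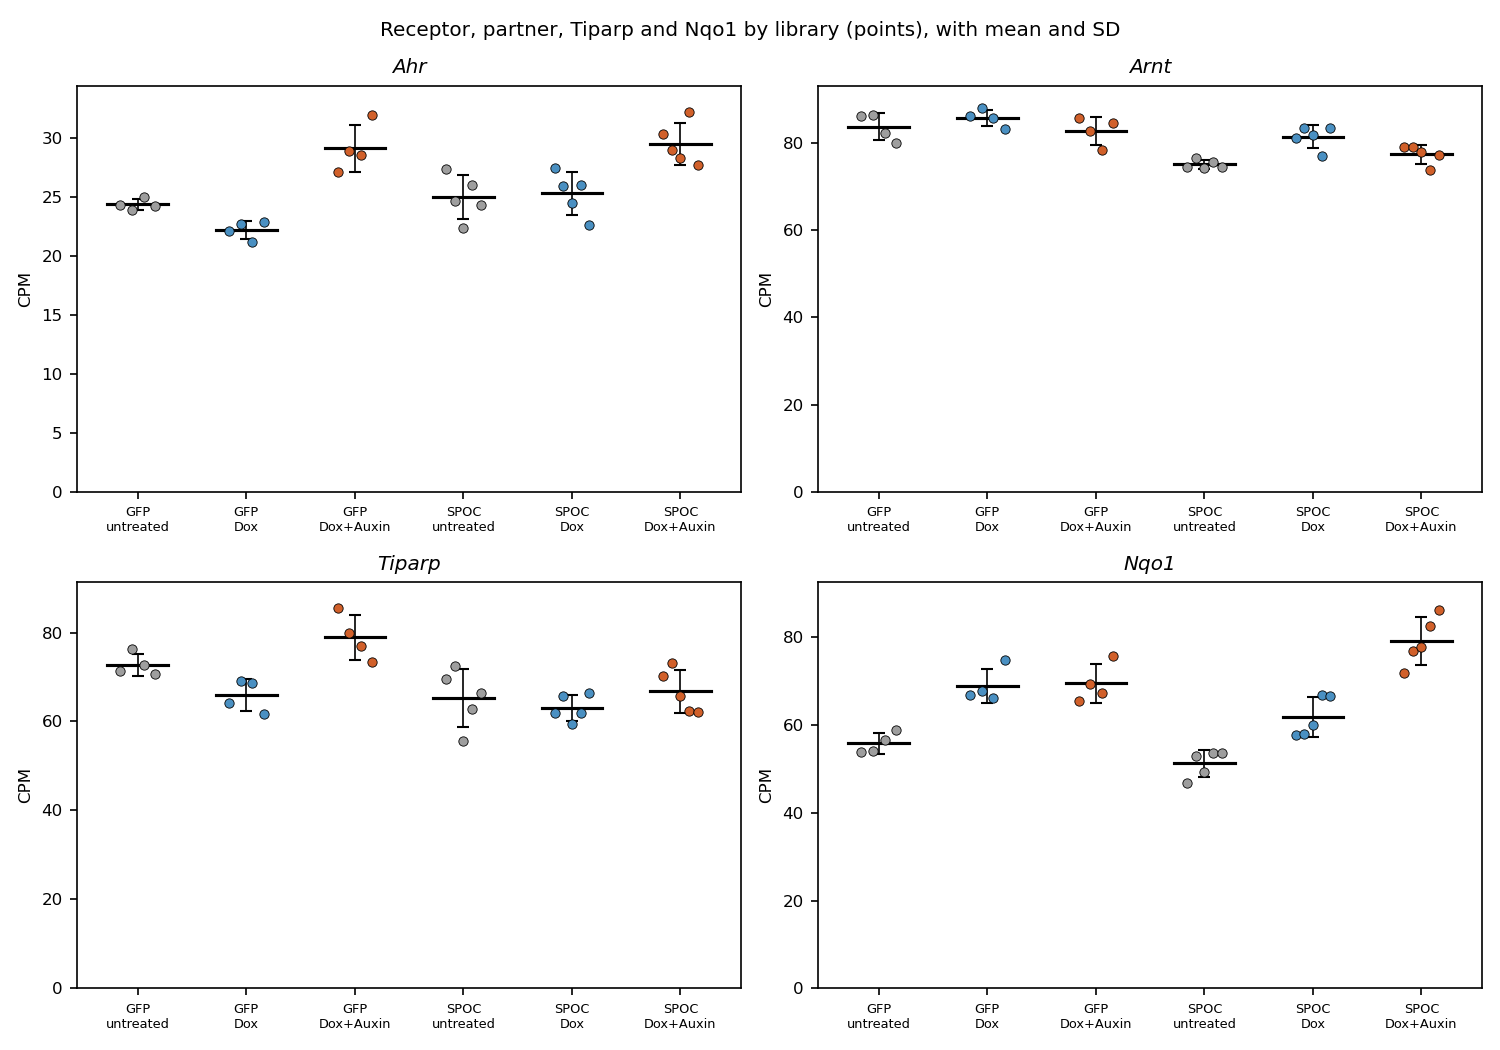
CPM (linear axes from 0) of Ahr, Arnt, Tiparp and Nqo1 in each of the 27 libraries (points) by line and treatment, with the mean (horizontal line) and SD (bars) of 4 GFP or 5 SPOC libraries. Ahr is highest with Dox+Auxin in both lines, Arnt stays between 73.8 and 88.0 CPM, and Nqo1 rises with Dox in both lines and again with auxin in the SPOC line, to 71.9 to 86.1 CPM.

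Cyp1a1, the enzyme gene most widely used to read out the receptor, had the largest fold change of any gene tested with Dox+Auxin against Dox. GFP libraries stood at 0.872, 0.676, 1.44 and 1.39 CPM untreated, 1.36, 1.45, 1.33 and 2.24 with Dox, and 38.3, 31.9, 39.7 and 43.9 with Dox+Auxin. SPOC libraries stood at 1.34, 1.84, 0.904, 2.17 and 1.03 CPM untreated, 0.960, 1.66, 0.870, 2.15 and 1.09 with Dox, and 27.8, 25.7, 21.3, 49.8 and 44.4 with Dox+Auxin. Every one of the 9 auxin libraries was above every one of the 18 others (21.3 to 49.8 against 0.676 to 2.24 CPM), and SPOC replicates 4 and 5 were the highest of their group. In counts, these were 744 to 1702 reads with auxin and 26 to 72 without. Lying wholly above the Dox libraries of the same line was shared by 22.3% of all genes tested for the GFP line and 10.1% for the SPOC line. These shares also apply to Cyp1b1 and Ahrr below. Cyp1a1 rose 24.3-fold in the GFP line (95% interval 16.2 to 36.6; log2 fold change 4.61, SE 0.30, adjusted p = 3.04e-11) and 25.0-fold in the SPOC line (17.1 to 36.7; 4.65, SE 0.28, adjusted p = 4.78e-11).

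Cyp1b1, the related enzyme that acts mainly outside the liver, followed with a smaller difference. GFP libraries were at 0.897, 0.567, 0.776 and 1.08 CPM untreated, 0.740, 0.690, 0.639 and 1.25 with Dox, and 7.80, 8.23, 8.68 and 10.1 with Dox+Auxin. SPOC libraries were at 1.41, 1.34, 0.800, 2.32 and 0.744 CPM untreated, 1.65, 1.66, 0.464, 2.35 and 0.638 with Dox, and 9.36, 8.71, 3.66, 14.6 and 5.36 with Dox+Auxin. The auxin libraries again all lay above the others (3.66 to 14.6 against 0.464 to 2.35 CPM), but the SPOC libraries were spread over a wider range than the GFP libraries, with replicate 4 highest in all 3 treatments. Cyp1b1 rose 10.6-fold in the GFP line (95% interval 5.89 to 19.2, adjusted p = 9.11e-07) and 6.23-fold in the SPOC line (3.79 to 10.3, adjusted p = 7.71e-06).

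Ahrr, the repressor that the receptor induces against itself, rose from about the same low level. Its libraries in the GFP line were at 0.748, 0.829, 1.08 and 0.832 CPM untreated, 0.740, 1.14, 1.31 and 1.15 with Dox, and 4.05, 4.29, 3.61 and 5.51 with Dox+Auxin. Those in the SPOC line were at 0.863, 0.831, 0.695, 0.812 and 0.550 CPM untreated, 0.651, 0.749, 0.783, 1.26 and 0.699 with Dox, and 3.81, 4.42, 5.01, 6.38 and 4.49 with Dox+Auxin. All auxin libraries were above all others in both lines (3.61 to 6.38 against 0.550 to 1.31 CPM). The rise was 4.00-fold in the GFP line (log2 fold change 2.00, SE 0.18, adjusted p = 2.42e-10) and 5.83-fold in the SPOC line (2.54, SE 0.17, adjusted p = 2.37e-12).

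**Figure D2:**
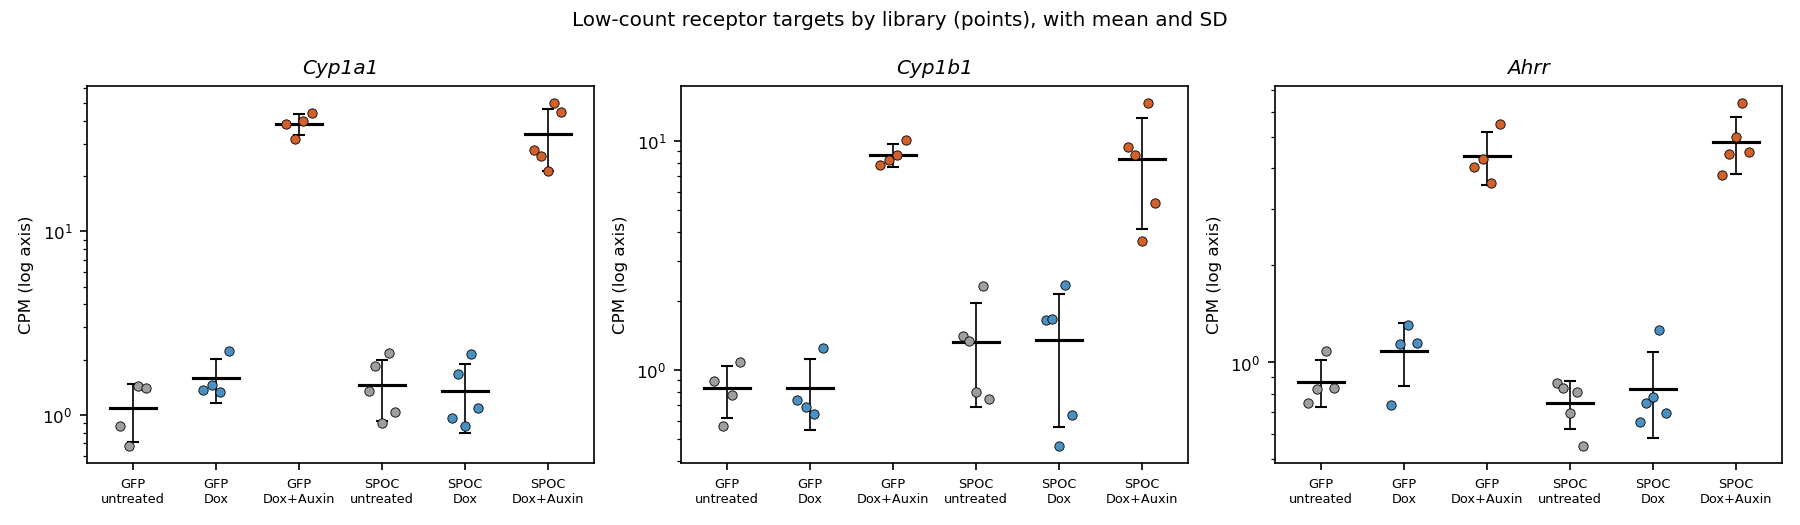
CPM (log axes) of Cyp1a1, Cyp1b1 and Ahrr in each of the 27 libraries (points), with the mean (horizontal line) and SD (bars) of 4 GFP or 5 SPOC libraries per treatment. In all 3 panels the 9 Dox+Auxin libraries lie above the 18 others, for Cyp1a1 at 21.3 to 49.8 against 0.676 to 2.24 CPM.

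Tiparp, the other feedback gene, was abundant in all groups and moved little. The GFP libraries held 71.3, 76.2, 72.7 and 70.7 CPM untreated, 64.2, 69.0, 68.7 and 61.6 with Dox, and 85.4, 79.9, 77.0 and 73.5 with Dox+Auxin. The SPOC libraries held 69.5, 72.5, 55.7, 62.8 and 66.4 CPM untreated, 61.8, 65.7, 59.5, 61.9 and 66.4 with Dox, and 70.1, 73.2, 65.8, 62.4 and 62.1 with Dox+Auxin. In the GFP line all Dox+Auxin libraries were above all Dox libraries, as for 22.3% of all genes tested, but overlapped the untreated ones. In the SPOC line all 3 groups overlapped. Against Dox, Tiparp rose in the GFP line (log2 fold change 0.26, 95% interval of the fold 1.10 to 1.30, SE 0.06, adjusted p = 0.000988). In the SPOC line the log2 fold change was 0.08 (SE 0.06, adjusted p = 0.286). Against untreated cells its log2 fold change with Dox+Auxin was 0.12 (SE 0.06, adjusted p = 0.137) in the GFP line and 0.03 (SE 0.06, adjusted p = 0.738) in the SPOC line, so no difference from untreated cells was called.

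Nqo1 differed from the other targets in that it rose with Dox alone. It measured, among GFP libraries, 53.8, 54.0, 56.6 and 58.9 CPM untreated, 66.9, 67.7, 66.1 and 74.7 with Dox, and 65.4, 69.3, 67.3 and 75.8 with Dox+Auxin. Among SPOC libraries it measured 46.8, 52.8, 49.3, 53.6 and 53.7 CPM untreated, 57.7, 58.0, 60.0, 66.9 and 66.7 with Dox, and 71.9, 76.9, 77.9, 82.6 and 86.1 with Dox+Auxin. Dox and Dox+Auxin libraries overlapped in the GFP line, whereas in the SPOC line the 3 treatments formed 3 separate ranges. Dox+Auxin libraries wholly above Dox libraries were seen for 10.1% of all genes tested for the SPOC line. All Dox libraries lay above all untreated ones in both lines, as for 13.4% of all genes tested for the GFP line and 4.60% for the SPOC line. Dox alone raised Nqo1 1.23-fold in the GFP line (log2 fold change 0.30, SE 0.06, adjusted p = 0.000274) and 1.21-fold in the SPOC line (0.27, SE 0.05, adjusted p = 0.000621). Adding auxin gave a log2 fold change of 0.01 (SE 0.06, adjusted p = 0.877) in the GFP line and a rise of 0.35 (SE 0.05, adjusted p = 4.82e-06) in the SPOC line.

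Dox without auxin called few of the 7 genes. Nqo1 was the 1 gene called higher in the GFP line, and 0 were called lower, where 10.1% of all genes were called higher and 10.8% lower. For the SPOC line, Nqo1 and Arnt were called higher and 0 lower, where 6.16% of all genes were called higher and 7.33% lower. The rise of Arnt was small (log2 fold change 0.12, SE 0.03, adjusted p = 0.00923). Cyp1a1 had a log2 fold change of 0.53 (SE 0.43, adjusted p = 0.437) in the GFP line and -0.13 (SE 0.40, adjusted p = 0.887) in the SPOC line. The 95% interval of its fold was 0.805 to 2.60 in the GFP line and 0.526 to 1.58 in the SPOC line, both far under the folds seen with auxin. For Cyp1b1 and Ahrr the adjusted p-values were 0.989 and 0.341 in the GFP line and 0.999 and 0.78 in the SPOC line. Ahr and Tiparp were each lower in all GFP Dox libraries than in all untreated ones, which 13.5% of all genes also were, with log2 fold changes of -0.13 (adjusted p = 0.119) and -0.14 (adjusted p = 0.108) that did not pass the threshold. In a fit of these 2 groups alone both passed, with adjusted p = 0.0376 for Ahr and 0.0131 for Tiparp.

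Against untreated cells, Dox+Auxin raised Cyp1a1, Cyp1b1, Ahrr, Ahr and Nqo1 in both lines and lowered 0 of the 7. Of all genes tested, 19.9% were called higher and 18.4% lower for the GFP line, and 16.7% and 16.6% for the SPOC line. This comparison shares its Dox+Auxin libraries with the one against Dox. Cyp1a1 was 35.3-fold higher in the GFP line (log2 fold change 5.14, SE 0.31, adjusted p = 2.22e-11) and 22.8-fold in the SPOC line (4.51, SE 0.28, adjusted p = 5.26e-11). The fold of Cyp1b1 was 10.5 and 6.23, that of Ahrr 4.98 and 6.38, in the GFP and the SPOC line, and the log2 fold change of Ahr 0.26 and 0.24. Nqo1 was 1.24-fold higher for the GFP line and 1.54-fold for the SPOC line (log2 fold change 0.62, SE 0.05, adjusted p = 2.6e-10).

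**Figure D3:**
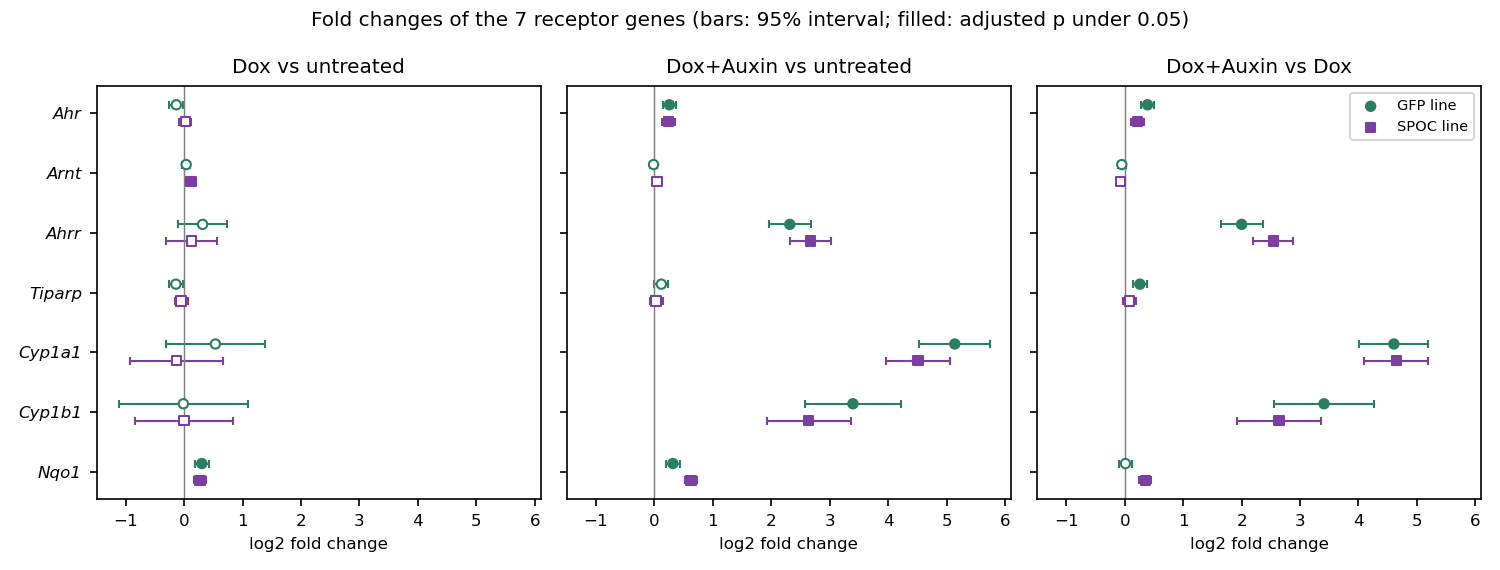
Log2 fold changes (points) with 95% intervals (bars) of the 7 receptor genes for 3 comparisons in the GFP line (circles, n = 4 per group) and the SPOC line (squares, n = 5 per group); filled points have an edgeR adjusted p under 0.05. With auxin, Cyp1a1 stands furthest right in both lines (4.61 and 4.65 against Dox), and without auxin the filled points are Nqo1 in both lines and Arnt in the SPOC line.

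Whether the response to auxin differed between the lines was tested as the difference of the Dox+Auxin against Dox fold changes, SPOC minus GFP. Of the 7 genes, 1 was called higher, Nqo1, and 0 lower, where 3.49% of all genes were called higher and 4.65% lower. The Nqo1 difference was 0.34 (SE 0.08, adjusted p = 0.00644), and it held in each of the 33 alternatives run (adjusted p from 2.82e-06 to 0.0227). For Cyp1a1 the difference was 0.04 (SE 0.46, adjusted p = 0.974), and the ratio of the 2 folds had a 95% interval of 0.553 to 1.91. For Cyp1b1 it was -0.77 (SE 0.60, adjusted p = 0.498), with an interval of the ratio from 0.258 to 1.33, which did not pass the threshold in this fit. The values for Ahrr (0.54, adjusted p = 0.218), Ahr (-0.17, adjusted p = 0.218), Tiparp (-0.18, adjusted p = 0.206) and Arnt (-0.02, adjusted p = 0.827) did not pass the threshold. Tiparp passed the Dox+Auxin against Dox test for the GFP line and not for the SPOC line, and this fit did not show those responses to differ. An edgeR fit with a block for replicate number called the differences of Cyp1b1 (-0.78, adjusted p = 0.0038) and Tiparp (-0.18, adjusted p = 0.0412).

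Levels of the lines were also compared within each treatment. In untreated cells Arnt was lower in the SPOC line (log2 fold change -0.16, SE 0.03, adjusted p = 0.00239), the 1 of the 7 called, where 5.77% of all genes were called lower and 5.79% higher. Tiparp, at -0.15 (adjusted p = 0.0915), passed the threshold once SPOC untreated replicate 2 was left out (-0.20, adjusted p = 0.0339). With Dox, Ahr was higher in the SPOC line (0.19, SE 0.06, adjusted p = 0.0361), where 5.36% of all genes were called higher and 5.33% lower. That call was lost without SPOC Dox replicate 1, 2 or 4 or GFP Dox replicate 1, 2 or 3 (adjusted p from 0.0596 to 0.112). Nqo1 with Dox, at -0.15 (adjusted p = 0.072), was called lower without SPOC Dox replicate 4 (0.0426) or 5 (0.0452). With Dox+Auxin, Tiparp (-0.24, SE 0.06, adjusted p = 0.0033) and Arnt (-0.10, SE 0.03, adjusted p = 0.0256) were lower and Nqo1 (0.19, SE 0.06, adjusted p = 0.0132) higher in the SPOC line, where 13.5% of all genes were called lower and 11.2% higher. The Nqo1 call was lost without GFP Dox+Auxin replicate 1 (adjusted p = 0.0643), and the Arnt call without SPOC Dox+Auxin replicate 4 or GFP Dox+Auxin replicate 1 or 4. For Cyp1a1, Cyp1b1 and Ahrr with Dox+Auxin, the SPOC to GFP ratio was 0.877 (95% interval 0.662 to 1.16), 0.958 (0.626 to 1.47) and 1.10 (0.903 to 1.35), none of them called.

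Expressed per kilobase of exon, which allows genes to be compared, the mean level in untreated GFP cells ran from Nqo1 (35.9 ± 1.54 CPM per kilobase, SD, n = 4) through Tiparp (16.7 ± 0.571), Arnt (10.5 ± 0.386) and Ahr (3.96 ± 0.0763) to Cyp1a1 (0.393 ± 0.136), Cyp1b1 (0.142 ± 0.0366) and Ahrr (0.0924 ± 0.0154). The receptor and its partner were thus well above the 3 low targets, and the library ranges of Cyp1b1 and Ahrr overlapped. With Dox+Auxin in the GFP line Cyp1a1 reached 13.8 ± 1.79 CPM per kilobase, between Tiparp (18.1 ± 1.16) and Arnt (10.4 ± 0.401), while Cyp1b1 reached 1.49 ± 0.172 and Ahrr 0.463 ± 0.0860. In the SPOC line with Dox+Auxin the means were 50.9 ± 3.52 for Nqo1, 15.3 ± 1.11 for Tiparp, 12.1 ± 4.49 for Cyp1a1, 9.67 ± 0.273 for Arnt, 4.79 ± 0.292 for Ahr, 1.43 ± 0.722 for Cyp1b1 and 0.511 ± 0.103 for Ahrr (SD, n = 5). There the range of Cyp1a1 (7.64 to 17.9) overlapped those of Tiparp and Arnt, so its place among these neighbours was not set.

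Of 16 further genes listed as receptor targets, 8 passed the filter on low counts. Auxin with Dox, relative to Dox, called 3 higher and 3 lower in the GFP line (median log2 fold change -0.17), and 2 higher and 2 lower in the SPOC line (median -0.05). Of all genes tested, 24.7% were called higher and 22.9% lower for GFP cells, and 16.6% and 15.4% for SPOC cells. Cyp1a2, the liver enzyme that lies next to Cyp1a1 on chromosome 9 (ENSMUSG00000032310, chr9:57676937-57683703), rose from few reads: 4, 5, 4 and 1 counts with Dox and 25, 17, 27 and 28 with Dox+Auxin in the GFP line, and 2, 0, 0, 1 and 4 against 18, 17, 23, 21 and 26 in the SPOC line. All auxin libraries were above all others, with a log2 fold change of 2.77 (SE 0.35, adjusted p = 9.37e-08) in the GFP line and 3.73 (SE 0.39, adjusted p = 1.07e-08) in the SPOC line, fitted values that depend on the prior count at such depths. GFP libraries without auxin held at most 0.153 CPM of Cyp1a2, under the filter's minimum of 0.292 CPM. In that line Cyp1a2 met the minimum through its auxin libraries alone. The SPOC Dox libraries held at most 4 counts, also below the filter's minimum count of 10. The separation and p-values of Cyp1a2 are therefore descriptions only in both lines. Cyp1a2 is counted in the calls of both lines above. Cyp1a2 RNA remained under 1 CPM, so it was far scarcer than Cyp1a1. Aldh3a1, an aldehyde dehydrogenase, rose in both lines, from 2.34 ± 0.267 to 3.33 ± 0.461 CPM in the GFP line (log2 fold change 0.51, SE 0.13, adjusted p = 0.00173) and from 2.67 to 3.33 CPM up to 3.14 to 4.65 in the SPOC line, where Dox+Auxin replicate 1 overlapped the Dox libraries (0.52, SE 0.11, adjusted p = 0.000589). The amino acid transporter Slc7a5 fell in both, by 0.17 and 0.16 on the log2 scale. Nfe2l2, which encodes NRF2, fell by 0.17 in the GFP line (adjusted p = 3.83e-05) and was at 0.00 in the SPOC line (adjusted p = 0.931), a difference between the lines that passed its own test (0.17, SE 0.04, adjusted p = 0.00859). Its GFP level was 140 ± 1.73 CPM untreated and 165 ± 2.91 with Dox, so the GFP fall started from a level above the untreated one.

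The genes that hold the receptor in its inactive complex moved little. Of the 5 listed, 0 rose in either line, 2 fell for the GFP line and 1 for the SPOC line. Of all genes tested, 24.7% rose and 22.9% fell for the GFP line, and 16.6% and 15.4% for the SPOC line. Hsp90ab1 fell by 0.08 in the GFP line (adjusted p = 0.00856) and by 0.09 in the SPOC line (adjusted p = 0.00174), but its GFP call was lost without GFP Dox replicate 4 (adjusted p = 0.0532). Hsp90aa1 fell by 0.21 in the GFP line (adjusted p = 9.53e-07) and had a log2 fold change of -0.06 in the SPOC line (adjusted p = 0.0877), which passed the threshold without SPOC Dox replicate 2 or SPOC Dox+Auxin replicate 3 or 5, and the lines differed in this response (0.15, SE 0.04, adjusted p = 0.019). Ptges3 (p23) and Src had log2 fold changes of 0.02 and 0.03 in the GFP line and of -0.02 and -0.09 in the SPOC line, none called, although Src in the SPOC line passed without SPOC Dox replicate 4 (adjusted p = 0.024). In the GFP line Hsp90aa1 was at 2284 ± 31.3 CPM untreated, 2572 ± 99.7 with Dox and 2224 ± 66.7 with Dox+Auxin. Hsp90ab1 was at 4422 ± 56.9, 4689 ± 126 and 4444 ± 30.4 CPM. Their GFP falls thus started from a level with Dox above the untreated one and ended near the untreated mean. Of the 11 other bHLH-PAS genes, 7 were tested. With Dox+Auxin against Dox, 1 was lower and 0 higher in the GFP line (22.9% and 24.7% of all genes). In the SPOC line 3 were lower and 1 higher (15.4% and 16.6%). Epas1, which encodes HIF-2α, fell in both lines, from 132 ± 3.19 to 73.8 ± 3.69 CPM in the GFP line (log2 fold change -0.84, adjusted p = 2.44e-13) and from 131 ± 6.62 to 93.1 ± 7.49 in the SPOC line (-0.49, adjusted p = 3.62e-09), and less so in the SPOC line by the interaction test (0.34, SE 0.07, adjusted p = 0.00288). Arnt2 was at -0.12 (adjusted p = 0.318) in the GFP line and fell by 0.33 in the SPOC line (adjusted p = 0.00389). Hif1a was at -0.11 (adjusted p = 0.0893) and 0.01 (adjusted p = 0.872), and in the GFP line passed without GFP Dox replicate 1 (0.0426) or GFP Dox+Auxin replicate 4 (0.0189).

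Nqo1 is also a target of NRF2, and the 17 other NRF2 targets listed, all tested, moved in both directions. Of these, 7 rose and 6 fell in the GFP line (median log2 fold change -0.01), and in the SPOC line 8 rose and 5 fell (median 0.01). The shares of all genes were 24.7% risen and 22.9% fallen for GFP cells, and 16.6% and 15.4% for SPOC cells. The pentose phosphate enzyme gene G6pdx, on the X chromosome, rose from 75.6 ± 1.13 to 112 ± 3.10 CPM in the GFP line (log2 fold change 0.57) and from 83.8 ± 6.56 to 109 ± 7.49 in the SPOC line (0.37). In untreated GFP libraries G6pdx was at 119 ± 2.36 CPM, above both of these GFP means. Its GFP rise was thus a return towards the untreated level after a fall with Dox. Srxn1, a sulfiredoxin, rose by 0.43 and 0.35, and Gstm1, a glutathione transferase, by 0.38 and 0.24, while Ftl1, the ferritin light chain, fell by 0.36 and 0.25. Hmox1 (heme oxygenase), named after its values were seen as a widely used NRF2 target, was at -0.01 (adjusted p = 0.829) in the GFP line and fell by 0.17 in the SPOC line (adjusted p = 0.00258). Osgin1, also named after its values were seen, had the largest fold change of the list at low levels, 0.418 ± 0.0252 to 1.06 ± 0.134 CPM in the GFP line (1.33, adjusted p = 8.42e-07) and 0.410 ± 0.103 to 0.806 ± 0.0748 in the SPOC line (0.96, adjusted p = 0.000122).

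Another 3 lists were read the same way, against the same shares of all genes (24.7% risen and 22.9% fallen for GFP cells, 16.6% and 15.4% for SPOC cells). Of 4 tested genes of the PXR and CAR receptors, which also respond to foreign compounds, 1 rose and 1 fell in the GFP line and 1 rose and 0 fell in the SPOC line; Por, the electron donor of the P450 enzymes, rose by 0.19 and 0.13. Of 7 tested genes of tryptophan and indole metabolism, 0 rose in either line, and 3 fell for the GFP line and 2 for the SPOC line, with Ido2, a tryptophan dioxygenase, lower by 0.43 and 0.47 (log2 fold changes -0.43 and -0.47). Of the 14 PARP genes, the family of Tiparp, 4 rose and 2 fell in the GFP line and 3 rose and 3 fell in the SPOC line. Parp16 rose by 0.45 and 0.49 and Parp9 fell by 0.72 and 0.30. Parp10 rose by 0.73 in the GFP line, whereas in SPOC cells its 0.34 (adjusted p = 0.0478) lost the threshold in most leave-outs (adjusted p up to 0.137). Parp14 fell by 0.51 in the GFP line, whereas in SPOC cells its -0.20 (adjusted p = 0.0336) lost the threshold without SPOC Dox replicate 2, 4 or 5 or SPOC Dox+Auxin replicate 1 or 2 (up to 0.106).

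**Figure D4:**
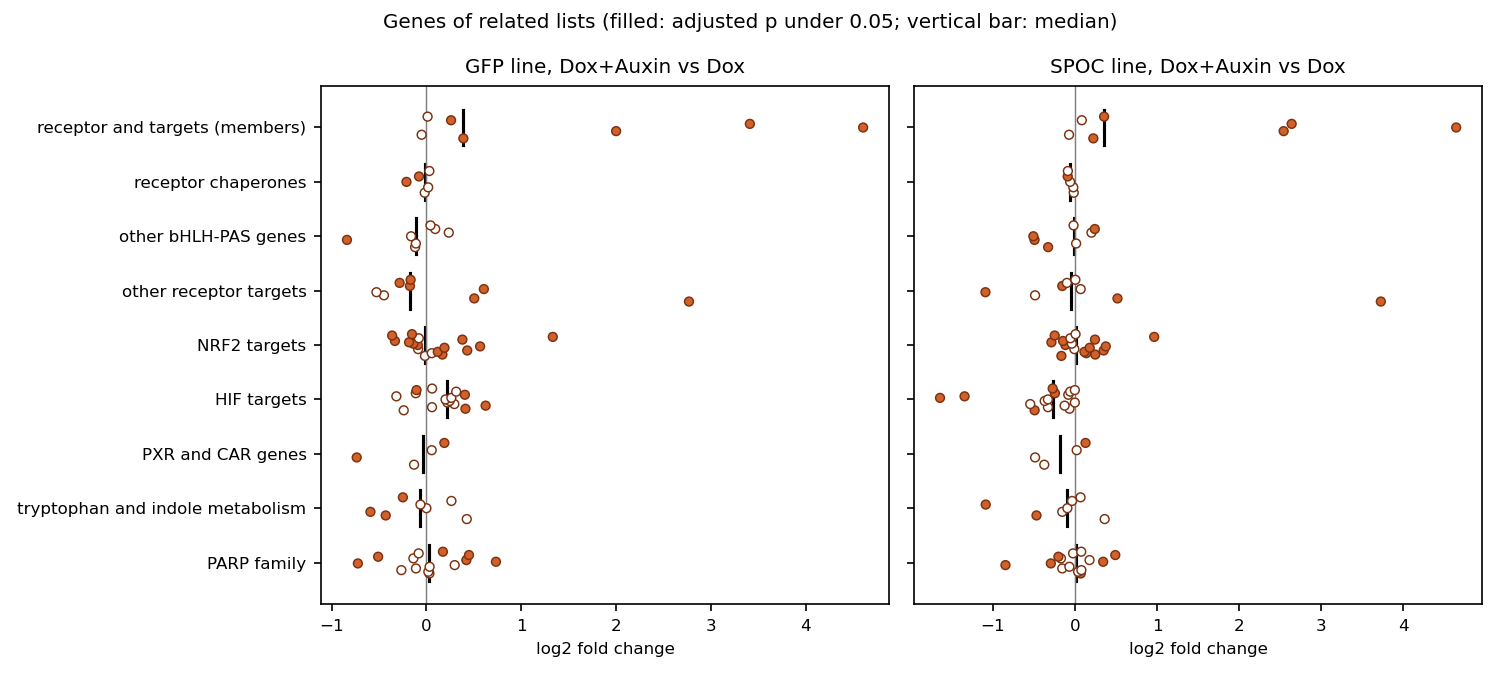
Log2 fold changes of Dox+Auxin against Dox for each tested gene (points) of the 7 receptor genes and 8 related lists in the GFP line (left) and the SPOC line (right); filled points have an edgeR adjusted p under 0.05 and the vertical bar is the list's median. The members include 3 genes from 2.00 upward in each line, while the medians of the other lists lie between -0.27 and 0.22.

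The genes whose pattern over the 6 group means of log2 CPM was most like that of Cyp1a1, by Pearson's r among 12290 candidates, were Mlana (r = 0.9995), Fzd10 (0.999), C2cd2l (0.9971), Slc35a1 (0.9969) and Srcin1 (0.9968). Their changes were far smaller, with log2 fold changes of 0.25 to 0.66 in the GFP line and 0.21 to 0.67 in the SPOC line for Dox+Auxin against Dox. With 6 points of which 2 are high, such an r mainly says that a gene was higher in both auxin groups and alike in the other 4. Most like Ahr were Zfp932 (0.997), Kcna2 (0.9965) and Mtrf1 (0.9951), and most like Nqo1 were Usp24 (0.9951), Adat1 (0.9891) and Trip11 (0.9881). With Dox+Auxin against Dox, Zfp932 and Kcna2 were called higher in both lines, and Adat1 in the SPOC line alone. Mtrf1, Usp24 and Trip11 were called in neither line, with log2 fold changes of 0.01 to 0.11.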

How the data were processed

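The authors deposited a table of raw read counts per gene for 27 libraries, per the file headers, made from paired-end TruSeq libraries per the labels' protocols. The build mm10 and the tools STAR 2.5.3a, featureCounts, Trim Galore 0.4.4 and Picard 2.18.2 are listed in the submitters' processing notes, besides DESeq2 1.18.1. No source used here gives the annotation or the strand setting. Another 81 columns (normalised and allelic values) were not used, because allelic names and totals disagreed, so the planned allelic shares were not run. GENCODE M21 (GRCm38) gave symbols and positions.

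Counts were scaled by TMM and filtered (filterByExpr, minimum count 10). A single edgeR 4.0.16 model (R 4.3.3, limma 3.58.1) covered all 27 libraries (robust quasi-likelihood test, no block), with Benjamini-Hochberg adjusted p under 0.05 called over 18363 genes and 10 comparisons. The code was tested on simulated counts. The design text calls the replicates biological and gives 4 per group, where the SPOC groups hold 5. The p-values measure the spread between these libraries. No library was counted as a duplicate (lowest chi-square per gene 1.754, SPOC Dox+Auxin replicates 1 and 2, against 2.743 or more elsewhere). The other pairs of that same group ran from 6.54 to 13.1, so replicates 1 and 2 were far more alike than these. Whether these 2 libraries are independent was not tested.

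Members and lists were chosen with earlier results of these data known. Besides the 7 genes, the naming rule took per list up to 4 genes called alike in both lines at a mean of at least 1 CPM, with chaperones, Arnt2, Hif1a, Cyp1a2, Aldh3a1 and Nfe2l2 always named. Of these, 1 gene is not reported here. The alternatives tried were DESeq2 size factors, the DESeq2 1.42.0 test, no filter, a non-robust fit, a replicate block, only the groups compared, and leaving out each library.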

Additional observations from a re-analysis of the deposited data

Results flagged for a closer look

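Groups of 4 or 5 libraries were checked for a library standing apart from the rest, in 42 sets of 1 gene and 1 group, and 3 were marked, where chance marks about 1 in 20. Ahrr in SPOC Dox replicate 4 was at 1.26 CPM, against 0.651 to 0.783 in the other 4 libraries. Cyp1a1 in GFP Dox replicate 4 was at 2.24 CPM, against 1.33 to 1.45 in the other 3. Cyp1b1 in the same GFP Dox replicate 4 was at 1.25 CPM, against 0.639 to 0.740. Without any one of these libraries the rises of Ahrr, Cyp1a1 and Cyp1b1 with Dox+Auxin against Dox passed the threshold in both lines.

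The response of Nqo1 to Dox+Auxin against Dox differed between the lines by 0.34 on the log2 scale by the interaction test (adjusted p = 0.00644, edgeR), with 0.01 for GFP cells and 0.35 for SPOC cells.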

How the results depend on the processing

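The 5 rises among the 7 genes with Dox+Auxin against Dox, and the 5 against untreated, were called in both lines under each alternative and leave-out run. No called gene value changed sign. Of 3762 gene values under alternatives, 61 changed sign while uncalled in both settings (largest size 0.31). Replicate numbers did not meet the rule for pairing: 22 of 27 same-numbered pairs correlated above 0.1 (lowest -0.0693), and 18 of 27 libraries matched best with their own number. Of differently numbered pairs, 0 of 36 in the GFP line and 5 of 60 in the SPOC line correlated above 0.1. Their median r was -0.05 and -0.11, against 0.23 and 0.32 for same-numbered pairs. The numbers thus carried some shared variation that the main test leaves out.

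With the replicate block, genes higher numbered 2792 instead of 1851 for Dox against untreated in the GFP line, with 2 members lower instead of 0 (Ahr and Tiparp). In the SPOC line they numbered 2042 higher and 2103 lower instead of 1132 and 1346. The interaction gave 1508 and 1809 instead of 641 and 854, with 2 members lower (Cyp1b1 at -0.78, adjusted p = 0.0038, and Tiparp at -0.18, adjusted p = 0.0412). The block also put 1 member lower for SPOC Dox+Auxin against Dox (Arnt), 3 for SPOC against GFP untreated (1 without the block) and 1 with Dox (Nqo1). For SPOC against GFP the block joined libraries of equal number across the lines, whereas for the other comparisons it joined them within a line. Pairing was examined within each line only, so the block across the lines has no basis in the labels or these correlations. Within the GFP line the block called Tiparp higher for Dox+Auxin against untreated (adjusted p = 0.0314).

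In fits of only the groups compared, 2 members were lower for GFP Dox against untreated, and SPOC against GFP with Dox+Auxin gave 1356 genes higher instead of 2048 and 1 member lower instead of 2. With no filter, SPOC against GFP gave 513 genes higher instead of 1063 untreated, 642 instead of 984 with Dox (0 members higher instead of 1) and 1 member lower with Dox+Auxin.

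Leaving out each library, SPOC against GFP gave 481 to 1168 genes higher, 532 to 1131 lower and 1 to 2 members lower untreated; 571 to 1045 genes lower, 0 to 1 members higher and 0 to 1 lower with Dox; and 0 to 1 members higher and 1 to 2 lower with Dox+Auxin. The interaction gave 423 to 952 genes higher, and SPOC Dox+Auxin against Dox 0 to 1 members lower. The lowest gene counts came without GFP untreated replicate 2 (481) or 1 (532), GFP Dox replicate 2 (571) and GFP Dox replicate 4 (423). The cause was not tested. Without auxin, counts of 16 to 77 for Cyp1a1, Cyp1b1 and Ahrr limited small differences between these groups.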

Other observations

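Within the SPOC line, Cyp1b1 was ordered alike in the 3 treatments. Replicate 4 was highest in all 3 (2.32, 2.35 and 14.6 CPM untreated, with Dox and with Dox+Auxin), and replicates 3 and 5 were the lowest pair in all 3 (0.800, 0.464 and 3.66, and 0.744, 0.638 and 5.36). The ratio of Dox+Auxin to Dox between libraries of the same number was nevertheless narrow, at 5.23 to 8.40 in the SPOC line and 8.12 to 13.6 in the GFP line. For Cyp1a1 these ratios were 15.4 to 40.6 in the SPOC line and 19.6 to 29.8 in the GFP line, and SPOC replicate 5 had the highest ratio. For Ahrr they were 5.07 to 6.43 and 2.77 to 5.48. These are descriptions, and the labels do not say that the numbers mark shared cultures.

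The targets of the hypoxia factors, which also pair with ARNT, numbered 15 tested. With Dox+Auxin against Dox 3 rose and 1 fell in the GFP line (median log2 fold change 0.22), and 0 rose and 5 fell in the SPOC line (median -0.27). Of all genes tested, 24.7% rose and 22.9% fell for GFP cells, and 16.6% and 15.4% for SPOC cells. Against untreated cells, Dox+Auxin called 1 higher and 1 lower in the GFP line (19.9% and 18.4% of all genes) and 1 higher and 14 lower in the SPOC line (median -0.61), where 16.6% of all genes tested were called lower. Dox alone against untreated cells called 1 higher and 4 lower in the GFP line (median -0.33), against 10.1% and 10.8% of all genes. In the SPOC line Dox alone called 1 higher and 5 lower (median -0.44), against 6.16% and 7.33%. The lower SPOC median was thus in part present without auxin. Between the lines with Dox+Auxin, 12 of the 15 were lower in the SPOC line, as were 13.5% of all genes, while the interaction test called 0 of them by edgeR.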
